A study of Homo sapiens with 6 samples.

Results

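Laminins are the secreted glycoproteins that give a basement membrane its first sheet. The genes described here are the laminin subunits of the deposited expression table of Huh7, a human hepatoma cell line. They were picked by gene name, with earlier results of these data known. Of 9 subunit genes named, 8 had a row among the 23344 rows of the table: the alpha chain genes LAMA2, LAMA3, LAMA4 and LAMA5, the beta chain genes LAMB1, LAMB2 and LAMB3, and the gamma chain gene LAMC1. LAMA1 was not analysed here. RNA sequencing was compared between 3 libraries of Huh7 cells given a lentivirus for knockdown of VersicanV1 (labelled sh2, called knockdown below) and 3 libraries of Huh7 cells given a control lentivirus (labelled shNC, called control below). VersicanV1 is a splice form of versican, a matrix proteoglycan encoded by VCAN. Both groups had been exposed to lentivirus with polybrene. A single knockdown virus is represented, and whether replicates are separate cultures is not stated, so each p-value reflects the scatter of these libraries, which may be technical.

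A laminin is a cross-shaped trimer of 1 alpha, 1 beta and 1 gamma chain, joined by a long coiled coil. In the endoplasmic reticulum the beta and gamma chains pair first, and the alpha chain completes the trimer and allows its secretion. The short arms of full-length chains link trimers into a sheet, while the globular end of the alpha chain binds integrins and the glycans of alpha-dystroglycan on the cell surface. In normal liver, laminins lie mainly around bile ducts and vessels, and hepatocytes face a sinusoid with no continuous basement membrane; liver tumours and fibrotic liver often deposit more of them.

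Of the laminin genes, the beta chain genes LAMB2 and LAMB3 were higher in the knockdown libraries, and no other subunit passed the test. LAMB3 reached the minimum level for testing only through its knockdown libraries, and with no filter on low values neither gene passed (limma adjusted p = 0.0911 for LAMB2 and 0.0509 for LAMB3). The start-site windows of these genes are shown first, with that of LAMB1, the near relative of LAMB2 that did not pass, and that of LAMA3, whose chain pairs with the LAMB3 chain. The windows were taken from RefSeq on GRCh38.p14 and run from 250 bases before to 50 bases after an annotated start; all 8 subunits matched, with 10 windows in all, of which LAMB3 had 3, and windows 1 and 2 of LAMB3 overlap. Sequences are written 5' to 3' along the gene's own strand. Capitals mark the AP-1 motif (TGANTCA) and the GC box (GGGCGG), each searched on both strands, so that CCGCCC is a GC box on the other strand; GC boxes can overlap each other. The motifs were chosen with earlier results of these data known.
LAMB2, chr3:49133001-49133300, minus strand: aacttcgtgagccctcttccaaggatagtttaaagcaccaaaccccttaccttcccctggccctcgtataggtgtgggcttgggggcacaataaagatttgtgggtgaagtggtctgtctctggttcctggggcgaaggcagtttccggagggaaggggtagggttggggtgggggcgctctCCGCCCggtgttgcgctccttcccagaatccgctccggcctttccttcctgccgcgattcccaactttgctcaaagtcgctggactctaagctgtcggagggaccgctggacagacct
LAMB3 window 1, chr1:209652376-209652675, minus strand: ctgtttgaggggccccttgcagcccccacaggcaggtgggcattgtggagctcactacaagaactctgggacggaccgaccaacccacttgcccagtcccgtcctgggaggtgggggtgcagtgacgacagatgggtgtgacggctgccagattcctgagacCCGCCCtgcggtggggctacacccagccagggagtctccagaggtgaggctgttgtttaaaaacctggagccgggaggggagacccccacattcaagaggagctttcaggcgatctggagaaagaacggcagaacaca
LAMB3 window 3, chr1:209651325-209651624, minus strand: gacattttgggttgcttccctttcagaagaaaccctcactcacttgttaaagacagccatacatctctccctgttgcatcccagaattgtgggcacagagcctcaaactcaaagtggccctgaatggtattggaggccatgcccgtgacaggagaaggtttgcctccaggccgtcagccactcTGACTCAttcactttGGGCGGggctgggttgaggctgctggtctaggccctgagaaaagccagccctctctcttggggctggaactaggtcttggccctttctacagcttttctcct
LAMB1, chr7:108003112-108003411, minus strand: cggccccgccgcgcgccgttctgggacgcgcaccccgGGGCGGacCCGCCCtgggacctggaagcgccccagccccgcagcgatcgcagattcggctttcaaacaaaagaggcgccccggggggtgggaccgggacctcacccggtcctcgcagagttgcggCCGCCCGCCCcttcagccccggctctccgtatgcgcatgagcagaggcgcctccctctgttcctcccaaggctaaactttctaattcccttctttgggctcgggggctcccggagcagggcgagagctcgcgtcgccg
LAMA3, chr18:23872770-23873069, plus strand: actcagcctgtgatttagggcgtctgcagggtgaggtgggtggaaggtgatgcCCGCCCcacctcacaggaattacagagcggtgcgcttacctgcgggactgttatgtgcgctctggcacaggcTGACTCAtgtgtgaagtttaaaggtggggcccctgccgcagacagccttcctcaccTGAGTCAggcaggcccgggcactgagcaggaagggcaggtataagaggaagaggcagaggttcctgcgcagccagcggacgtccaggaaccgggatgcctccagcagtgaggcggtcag

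An AP-1 motif stood in 2 of the 10 laminin windows, against 7.71% of all 35116 RefSeq windows of the same 300 bases. These were LAMB3 window 3, where TGACTCA begins 67 bases before the start, and the LAMA3 window, which holds 2. Neither the LAMB2 window nor the LAMB1 window held one. A GC box stood in 8 of the 10 windows, against 45.0% of all windows, and was missing from those of LAMA2 and LAMA4. The overlapping LAMB3 windows 1 and 2 hold the same GC box, which that count takes in both. The TATA box (TATAAA) was in 0 of the 10 windows, against 11.5% of all, and the cyclic AMP response element (TGACGTCA) in 0, against 1.85%. The LAMA5 window was 82.7% G and C, that of LAMC1 79% and that of LAMB1 71%, while the LAMB2 window stood at the median of all windows, 58.7%. These matches describe letters and not bound sites, and the deposited table has 1 row per gene, so the transcripts that begin at the 3 LAMB3 starts were not separated.

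The values were treated as FPKM (fragments scaled by transcript length and by library size), although the file does not name its unit, and levels of different genes are compared on that per-length scale. The values of a library summed to 922125 to 975501 in the knockdown libraries, against 851418 to 947769 in the control libraries; the number of reads is unknown. VCAN, the targeted gene, had 1.90, 1.74 and 1.64 in knockdown replicates 1, 2 and 3, and 4.79, 6.24 and 8.10 in control replicates 1, 2 and 3, with no overlap (log2 fold change -1.39, SE 0.19, limma adjusted p = 0.0103); its adjusted p was 0.0562 without control replicate 2. The row does not separate the V1 isoform. The hepatocyte markers were present in every library, with a sum over 10 genes of 8035 to 10172 in the knockdown libraries, against 6634 to 8246 in the control libraries; among them APOA1 (log2 fold change 1.05, limma adjusted p = 0.0325) and FGB (0.70, 0.0188) rose and TTR (-1.19, 0.00770) fell. The 13 mitochondrially encoded genes took 23.8, 27.0 and 31.2% of the summed values in knockdown replicates 1, 2 and 3, and 17.5, 16.0 and 19.2% in control replicates 1, 2 and 3. Knockdown replicate 2 stood apart in several leukocyte genes, with S100A8 at 17.9 there and at 0 in every other library: the 9 markers found of 10 summed to 199.5 there, against 107.2 and 106.8 in knockdown replicates 1 and 3 and 73.6 to 91.2 in the control libraries. Most of each sum was LYZ and CD14, present in every library. LYZ was itself called higher in the knockdown libraries (log2 fold change 1.08, limma adjusted p = 0.0277). CD14 and CD68 did not stand apart in knockdown replicate 2. Without knockdown replicate 2 the log2 fold changes were 0.79 for LAMB2 and 0.94 for LAMB3, and neither passed (limma adjusted p = 0.114 and 0.0787).

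Huh7 cells expressed 4 laminin genes at a high level and 4 at a low level or near 0. Averaged over all 6 libraries, LAMA5 came first, at a level above 96.2% of the rows of the table, followed by LAMB2 (95.1%), LAMB1 (91.3%) and LAMC1 (88.2%). LAMB3, LAMA3 and LAMA4 followed near a value of 1, above 45.2, 44.3 and 42.8% of the rows, and LAMA2 was close to 0. The high genes thus included 1 alpha, 2 beta and 1 gamma chain, the parts of laminins built on the LAMA5 and LAMC1 chains. Not every neighbour in that order was separated. The ranges of LAMA5 and LAMB2 overlapped in the knockdown libraries and not in the control libraries, and those of LAMB2 and LAMB1 overlapped in the control libraries and not in the knockdown libraries. LAMB3 was the lowest of the 3 genes near 1 in the control libraries, where its range ended at 0.66 and those of LAMA4 and LAMA3 began at 0.68 and 0.85. In the knockdown libraries LAMB3 had the highest mean of the 3, and its range overlapped that of LAMA3 and not that of LAMA4.

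LAMB2 (ENSG00000172037) encodes the beta chain of the laminins of the kidney filter and the neuromuscular synapse, and inherited loss of it causes a kidney and eye disease, Pierson syndrome. It had 93.5, 130.0 and 158 FPKM in knockdown replicates 1, 2 and 3, and 72.3, 60.5 and 77.5 FPKM in control replicates 1, 2 and 3. All 3 knockdown libraries were above all 3 control libraries, and knockdown replicate 1 was the nearest to them. The mean was 127 ± 32.2 FPKM in the knockdown libraries and 70.1 ± 8.71 FPKM in the control libraries (SD, n = 3 each), a ratio of 1.81. On the log2(value + 1) scale LAMB2 rose by 0.82 (SE 0.19, 95% interval 0.39 to 1.26, limma adjusted p = 0.0368). In bulk libraries such as these, a change in the number of cells that make a transcript and a change in the amount per cell cannot be told apart.

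LAMB3 (ENSG00000196878) encodes the beta chain of the epidermal laminin that anchors keratinocytes through hemidesmosomes, and its loss causes junctional epidermolysis bullosa, a blistering disease of skin. Its values were 1.98, 3.01 and 1.88 FPKM in knockdown replicates 1, 2 and 3, and 0.55, 0.37 and 0.66 FPKM in control replicates 1, 2 and 3. The groups did not overlap, and the lowest knockdown library was well above the highest control library. The mean was 2.29 ± 0.626 FPKM in the knockdown libraries and 0.527 ± 0.146 FPKM in the control libraries (SD, n = 3 each), a ratio of 4.35. On the log2(value + 1) scale LAMB3 rose by 1.096 (SE 0.20, 95% interval 0.64 to 1.55, limma adjusted p = 0.0215). It entered that test only because the knockdown libraries reached a value of 1, which no control library did, so that it had to differ to be tested, and with no filter the adjusted p was 0.0509. The size of the change of so low a gene depends on the pseudocount. With 0.1 in place of 1 the log2 fold change was 1.93, with a larger SE of 0.36 (limma adjusted p = 0.0232). Even in the knockdown libraries its level was a small part of that of the other beta chains.

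LAMB1 encodes the beta chain found in most embryonic and many adult laminins. It had 55.9, 51.0 and 64.4 FPKM in knockdown replicates 1, 2 and 3, and 49.2, 45.7 and 68.8 FPKM in control replicates 1, 2 and 3. Control replicate 3 held the highest value, and the groups overlapped. The log2 fold change was 0.08 (SE 0.17, 95% interval -0.30 to 0.46, limma adjusted p = 0.790), an interval that spans both directions. LAMB1 and DLD overlap on opposite strands in GENCODE release 29, and the sources used here do not state the strand used in counting; DLD was between 49.9 and 54.7 in the knockdown libraries and between 43.5 and 64.9 in the control libraries.

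**Figure D1:**
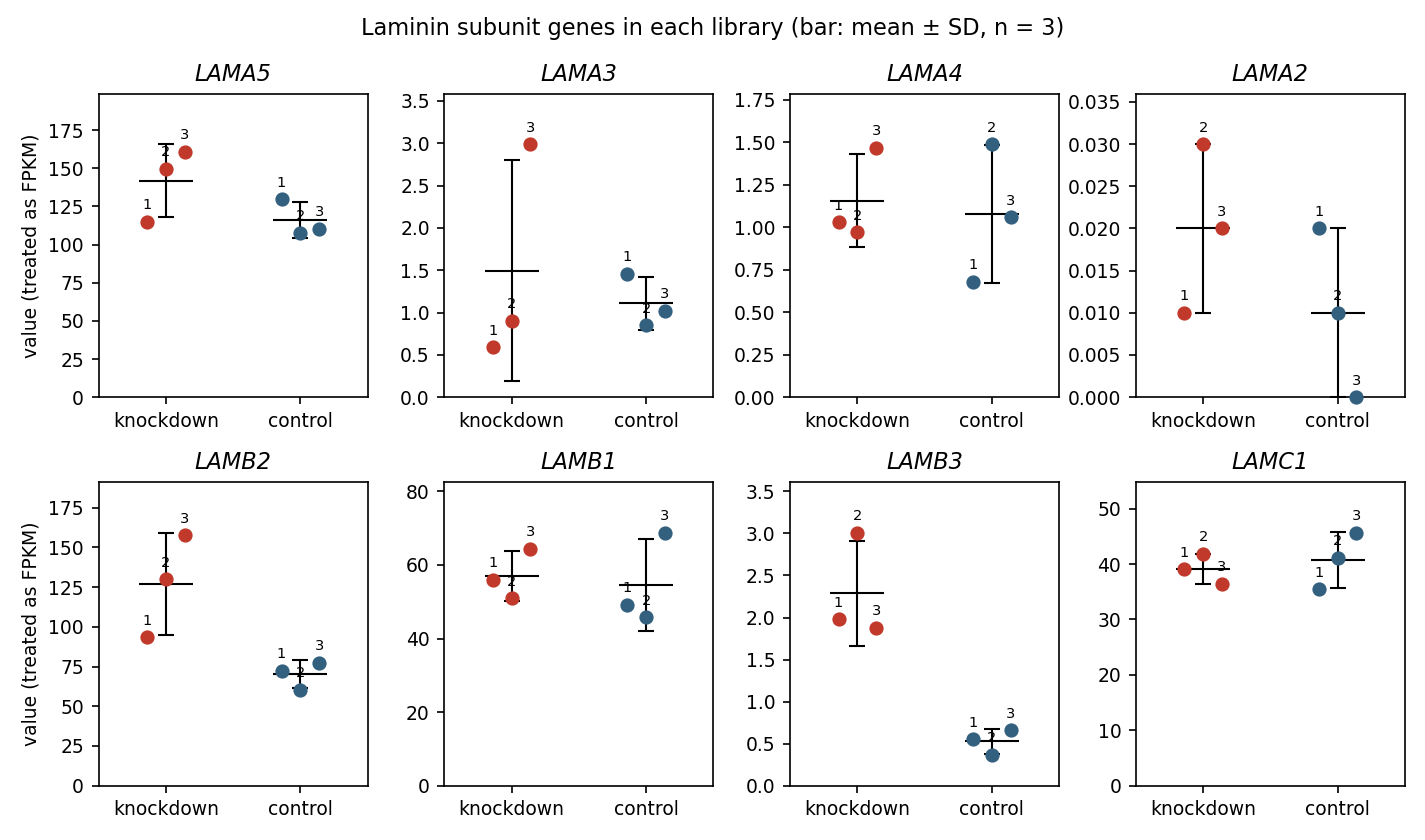
Value (treated as FPKM) of each laminin subunit gene in the 3 knockdown libraries (red) and the 3 control libraries (blue), numbered by replicate, with the mean and SD (n = 3); each panel has its own linear axis from 0. LAMB2 and LAMB3 are the only panels in which all knockdown points lie above all control points.

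LAMB2 made up more of the beta chain transcripts in each knockdown library than in any control library. LAMB2 took 61.8, 70.7 and 70.4% of the summed FPKM of LAMB1, LAMB2 and LAMB3 in knockdown replicates 1, 2 and 3, and 59.2, 56.7 and 52.7% in control replicates 1, 2 and 3. LAMB1 took the larger part of the rest, 31.1 ± 5.05% in the knockdown libraries and 43.3 ± 3.28% in the control libraries (SD, n = 3 each). LAMB3 took 0.839 to 1.64% in the knockdown libraries, against 0.347 to 0.450% in the control libraries. It reached the minimum level for testing only through its knockdown libraries, so this share restates its own values. The sum of the 3 beta genes was 151.4, 184.0 and 224.0 FPKM in knockdown replicates 1, 2 and 3, and 122.1, 106.6 and 146.9 FPKM in control replicates 1, 2 and 3, so that knockdown replicate 1 and control replicate 3 were nearly level.

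Ratios within a library do not depend on how the libraries were scaled. The ratio of LAMB2 to LAMB1 was 1.67, 2.55 and 2.45 in knockdown replicates 1, 2 and 3, and 1.47, 1.32 and 1.13 in control replicates 1, 2 and 3. Every knockdown library had a higher ratio than every control library, with a mean difference of 0.75 on the log2 scale. The two-sided exact permutation p was 0.1, which is the smallest that 3 libraries against 3 allow. The ratio of LAMB3 to LAMB1 was between 0.0292 and 0.0590 in the knockdown libraries and between 0.00809 and 0.0112 in the control libraries. Its log2 difference was 2.05 (two-sided exact permutation p = 0.1), and 1.02 with a pseudocount of 1. LAMB3 reached the minimum level for testing only through its knockdown libraries, and LAMB1 overlapped between the groups. The ratio of LAMB3 to LAMB1 thus restates the LAMB3 values and carries no weight of its own. With 3 ratios compared in all, none could have passed a threshold of 0.05 in this design.

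**Figure D2:**
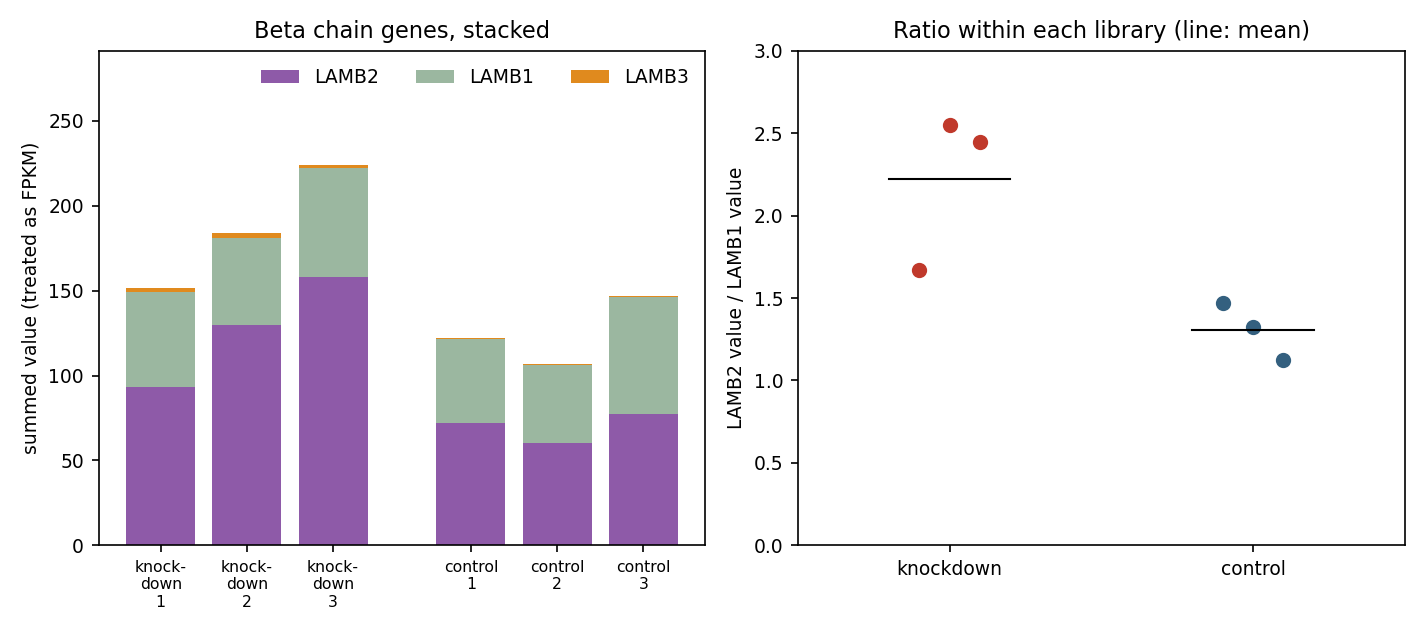
Left, summed value (treated as FPKM) of the beta chain genes in each library, stacked as LAMB2, LAMB1 and LAMB3; right, the ratio of LAMB2 to LAMB1 in each library, with the group mean as a line. The LAMB2 part of the stack is taller in each knockdown library than in any control library, and the ratio is between 1.67 and 2.55 in the knockdown libraries and between 1.13 and 1.47 in the control libraries.

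LAMA5 encodes the alpha chain most widely found in adult epithelia and vessels, and it made up nearly all of the alpha chain transcripts. Its share of the summed FPKM of the 4 alpha genes was between 97.3 and 98.7% in the knockdown libraries and between 97.9 and 98.4% in the control libraries. LAMA5 had 115.0, 149.7 and 161 FPKM in knockdown replicates 1, 2 and 3, and 129.8, 107.9 and 110.4 FPKM in control replicates 1, 2 and 3. Knockdown replicates 2 and 3 were above all control libraries and knockdown replicate 1 was below control replicate 1. LAMA5 did not pass the test (log2 fold change 0.28, SE 0.15, 95% interval -0.06 to 0.62, limma adjusted p = 0.249), although it did without knockdown replicate 1 (0.42, limma adjusted p = 0.0310), where 3342 of all 13696 genes tested were called. It overlaps ADRM1 on the opposite strand in GENCODE release 29, and ADRM1 was lower in each knockdown library, between 133.9 and 162.7, than in the control libraries, between 180.2 and 184.3.

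LAMA3, LAMA4 and LAMA2 were scarce. LAMA3, whose chain joins that of LAMB3 in the epidermal laminin, had 0.59, 0.90 and 2.99 FPKM in knockdown replicates 1, 2 and 3, and 1.46, 0.85 and 1.02 FPKM in control replicates 1, 2 and 3. Knockdown replicate 3 held the highest value and knockdown replicate 1 the lowest, so the groups overlapped; the log2 fold change was 0.13 (SE 0.33, limma adjusted p = 0.828), and -0.27 without knockdown replicate 3. LAMA4, an alpha chain of endothelial and mesenchymal cells, was between 0.97 and 1.47 FPKM in the knockdown libraries and between 0.68 and 1.49 FPKM in the control libraries (log2 fold change 0.07, SE 0.21, limma adjusted p = 0.866). LAMA2, the alpha chain of muscle and peripheral nerve, was at most 0.03 FPKM in any library, was listed at 0 in control replicate 3, and was too low to be tested. Of the 4 endothelial markers found of 8, VWF, KDR and CLDN5 were at most 0.17 in every library, while EGFL7 averaged 41.2 in the knockdown libraries and 31.6 in the control libraries without passing (log2 fold change 0.37, limma adjusted p = 0.153); its part in the results was not tested. The 4 muscle markers found of 6 summed to between 0.43 and 2.73 in the knockdown libraries and between 0.34 and 0.74 in the control libraries.

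LAMC1 encodes the gamma chain shared by most laminins outside the epidermis. It had 39.1, 41.9 and 36.5 FPKM in knockdown replicates 1, 2 and 3, and 35.5, 41.1 and 45.7 FPKM in control replicates 1, 2 and 3. The knockdown range lay inside the control range. The log2 fold change was -0.05 (SE 0.13, 95% interval -0.34 to 0.24, limma adjusted p = 0.824), and its sign turned with the scaling of the libraries. Summed levels per length were uneven between the chain classes: the beta genes had a median of 184.0 FPKM in the knockdown libraries and 122.1 FPKM in the control libraries, and the alpha genes 151.6 FPKM in the knockdown libraries and 112.5 FPKM in the control libraries. The median of LAMC1 was 39.1 FPKM in the knockdown libraries and 41.1 FPKM in the control libraries. The ratio of LAMA5 to LAMC1 was 2.94, 3.57 and 4.41 in knockdown replicates 1, 2 and 3, and 3.66, 2.62 and 2.42 in control replicates 1, 2 and 3, which overlapped (log2 difference 0.33, two-sided exact permutation p = 0.3).

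Of the 7 subunits tested, 2 rose and 0 fell, where "rose" and "fell" stand for a limma adjusted p below 0.05. Among all 13696 genes tested, 8.08% were called, with 4.15% up and 3.94% down. The 7 subunits had a median log2 fold change of 0.13, against -0.03 over all genes tested. LAMB3 entered the test through its knockdown libraries alone, since no control library reached a value of 1, so the count and the median over the tested subunits carry no weight of their own. The groups were fully apart for LAMB2 and LAMB3, while over all genes tested the knockdown libraries were fully above the control libraries for 14.4% and fully below them for 18.7%. When the libraries were rescaled without the 13 mitochondrially encoded genes, 673 genes were higher and 221 lower, in place of 568 and 539. LAMB2 and LAMB3 kept their calls there, with log2 fold changes of 0.93 and 1.15.

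Both calls were close to the threshold. Over 13 alternative settings LAMB2 passed in 6 and LAMB3 in 7, with an adjusted p up to 0.142 and 0.0923, and neither changed sign. Leaving out any library other than knockdown replicate 1 ended both calls. For LAMB2 the limma adjusted p was 0.0971, 0.142 and 0.0757 without control replicates 1, 2 and 3, and 0.114 and 0.103 without knockdown replicates 2 and 3. For LAMB3 it was 0.0688, 0.0923 and 0.0534 without control replicates 1, 2 and 3, and 0.0787 and 0.0502 without knockdown replicates 2 and 3. Without knockdown replicate 1 it was 0.00249 for LAMB2 and 0.00939 for LAMB3, a setting in which 3342 of all 13696 genes tested were called. Without the mean-variance trend and robust moderation LAMB2 reached 0.0573. Over these settings the log2 fold change was 0.65 to 1.03 for LAMB2 and 0.94 to 1.93 for LAMB3.

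**Figure D3:**
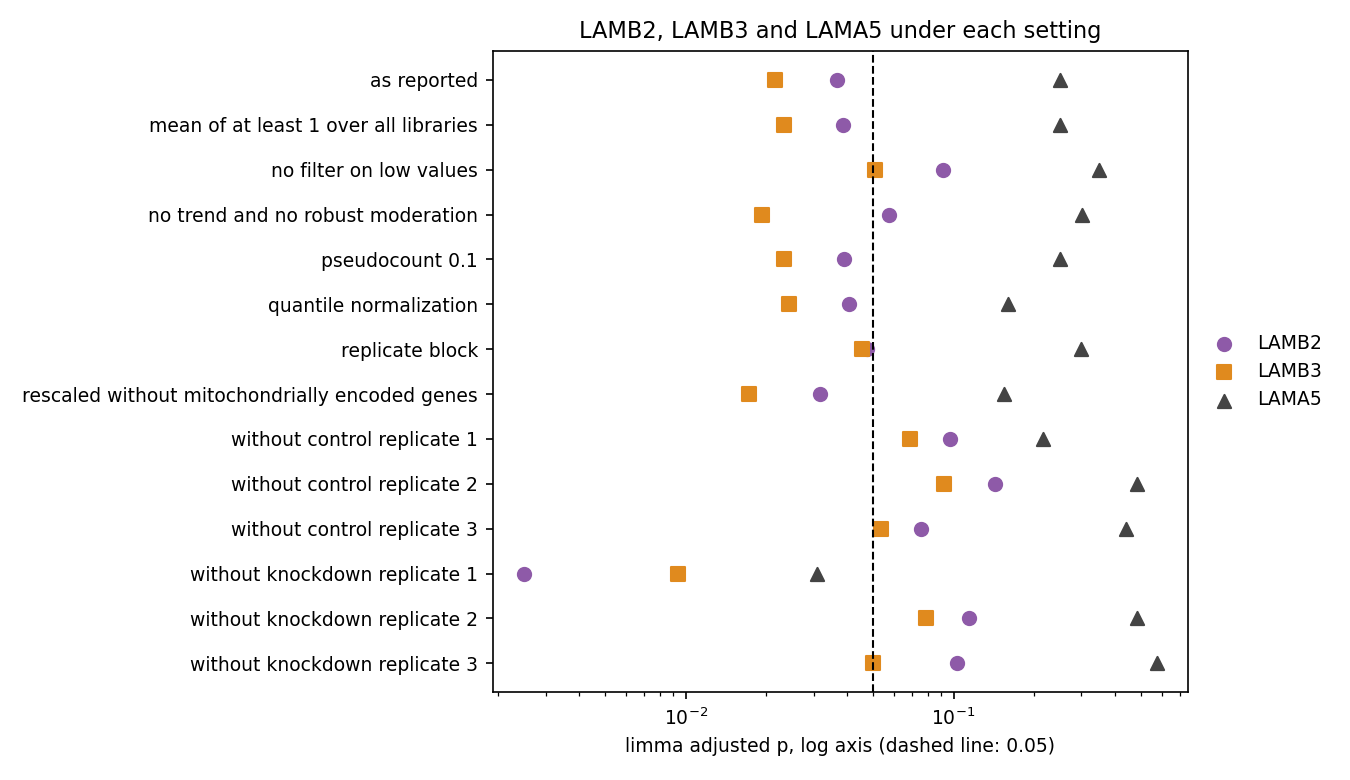
Limma adjusted p (log axis) of LAMB2, LAMB3 and LAMA5 as reported and under each of the 13 alternatives, with the threshold of 0.05 as a dashed line. LAMB2 and LAMB3 lie on both sides of the line and furthest below it without knockdown replicate 1. Only that setting puts all of the 3 genes below the line.

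The genes whose log2 values most resembled each called subunit over the 6 libraries were looked up among 8156 others for LAMB2 and 8157 for LAMB3 with a mean log2 value of at least 3. For LAMB2 they were ABCC6, a membrane transporter gene with near-identical pseudogenes, SERTAD3 and GRAMD1A (Pearson r of 0.999, 0.997 and 0.997). For LAMB3 they were PIGB, MAPK8IP3 and MCM3AP (Pearson r of 0.987, 0.984 and 0.980). The points share group, library and scaling, and are a description of 6 libraries.

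Cells hold laminin through integrins, dystroglycan and syndecans. Of 14 receptor genes, all with a row, 13 were tested, of which 0 rose and 3 fell, against 3.94% of all genes tested that fell; the median log2 fold change was 0.14, against -0.03 over all genes. With quantile normalization or with the rescaling, 1 receptor rose and 1 fell. Without knockdown replicate 1, 4 receptors rose and 5 fell, while 1638 of all 13696 genes tested rose there and 1704 fell. SDC1, a syndecan, whose heparan sulfate chains bind laminin, had 8.90, 10.5 and 10.3 in knockdown replicates 1, 2 and 3, and 19.5, 22.8 and 19.9 in control replicates 1, 2 and 3 (log2 fold change -0.996, SE 0.13, limma adjusted p = 0.0100). No knockdown library reached the lowest control library. DAG1 encodes dystroglycan, which links laminin to the cytoskeleton. It had 18.0, 16.7 and 14.2 in knockdown replicates 1, 2 and 3, and 24.4, 25.3 and 22.2 in control replicates 1, 2 and 3, again without overlap (log2 fold change -0.53, SE 0.13, limma adjusted p = 0.0441). SDC2, another syndecan, fell by 0.43 on the log2 scale at the edge of the threshold (SE 0.11, limma adjusted p = 0.04997, and below the threshold in 1 of 13 alternatives), and DAG1 was below it in 3 of 13. Both DAG1 and SDC2 lost the call when any single library other than knockdown replicate 1 was left out, with adjusted p up to 0.156 for DAG1 and 0.171 for SDC2 (limma), and SDC1 lost it without control replicate 2 (0.0539).

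The integrin chains that form laminin receptors did not pass the test. ITGB1, the common beta subunit, averaged 148 in the knockdown libraries and 125 in the control libraries (log2 fold change 0.25, limma adjusted p = 0.218), and its main laminin-binding partner ITGA6 averaged 20.01 in the knockdown libraries and 21.0 in the control libraries (-0.04, limma adjusted p = 0.919). ITGB4, the hemidesmosome subunit, averaged 3.21 in the knockdown libraries and 1.95 in the control libraries (0.50, limma adjusted p = 0.150). BCAM, a receptor for the LAMA5 chain, averaged 146 in the knockdown libraries and 112 in the control libraries (0.36, limma adjusted p = 0.172). ITGA3 was too low to be tested. SDC4, a further syndecan, was higher in each knockdown library than in any control library without passing (log2 fold change 0.55, limma adjusted p = 0.0516). ITGB1 was likewise higher in each, also without passing. Of the 13 receptors tested, the knockdown libraries were fully above the control libraries for 3 and fully below them for 4. Over all genes tested those shares were 14.4% and 18.7%.

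**Figure D4:**
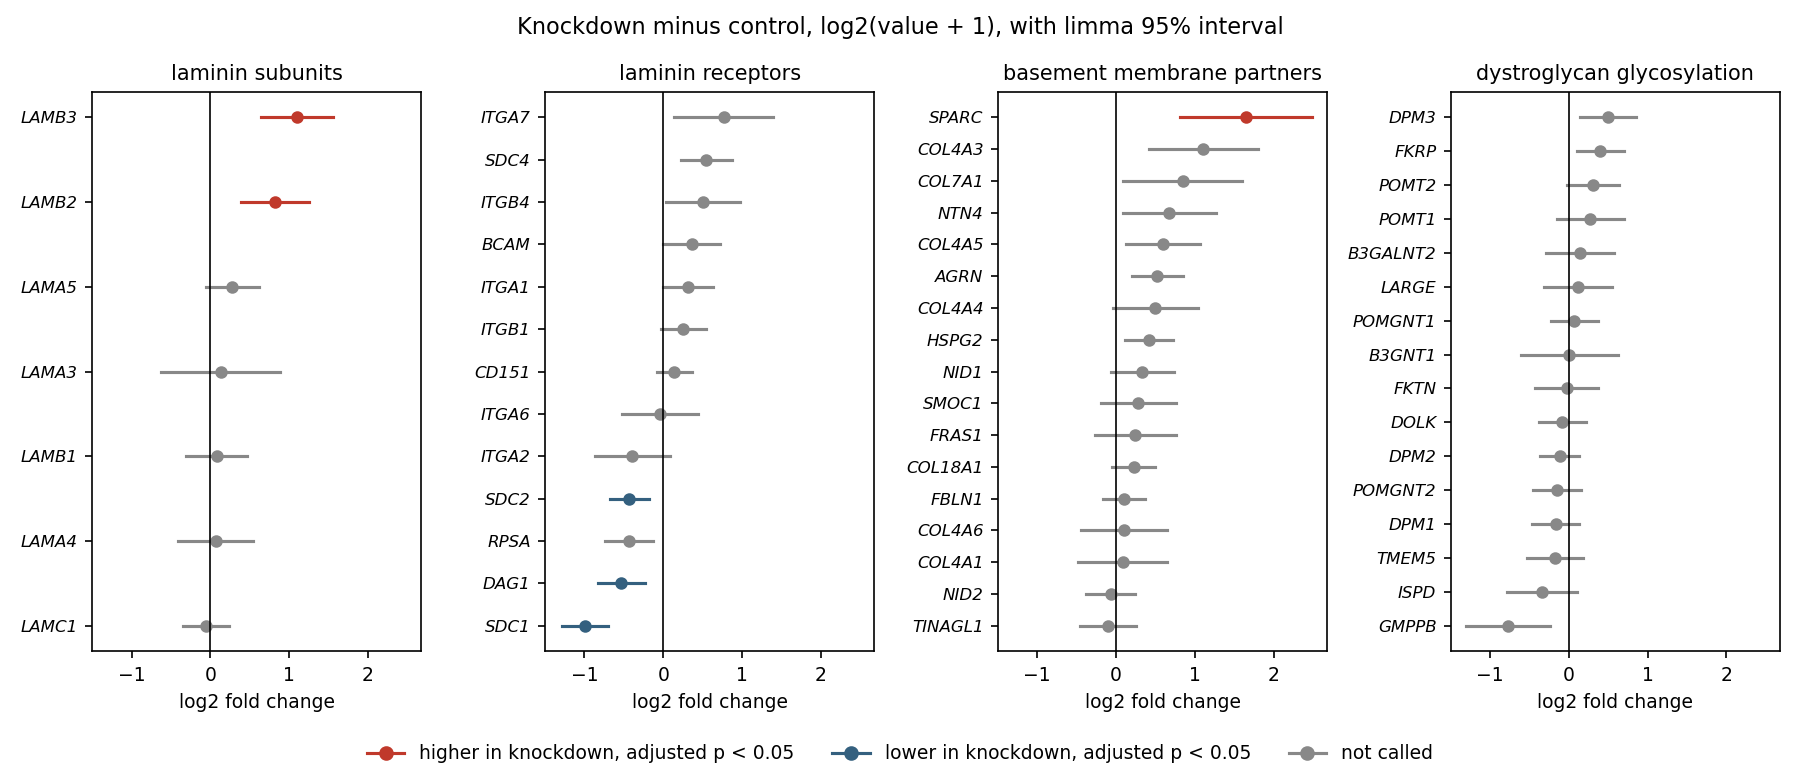
Log2 fold change (knockdown minus control, on the log2(value + 1) scale) with limma's 95% interval for the tested laminin subunits, laminin receptors, basement membrane partners and genes of dystroglycan glycosylation. Called genes are LAMB3 and LAMB2 among the subunits, SDC1, DAG1 and SDC2 on the lower side among the receptors and SPARC among the partners.

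Among the other parts of the basement membrane a single gene was called. Of 25 partner genes, 23 had a row and 17 were tested, of which 1 rose and 0 fell, against 4.15% of all genes tested that rose. A log2 fold change above 0 was found for 15 of the 17, against 6368 of all 13696 genes tested. The median was 0.33, against -0.03 over all genes. The gene that rose was SPARC, a collagen-binding matrix protein, with 3.09, 6.57 and 6.78 in knockdown replicates 1, 2 and 3, and 0.61, 0.42 and 2.40 in control replicates 1, 2 and 3 (log2 fold change 1.65, SE 0.37, limma adjusted p = 0.0346). Its groups did not overlap, though knockdown replicate 1 and control replicate 3 were close, and it passed in 8 of 13 alternatives. It did not pass without control replicate 1 (limma adjusted p = 0.107), control replicate 2 (0.131), knockdown replicate 2 (0.111) or knockdown replicate 3 (0.120). Control replicates 1 and 2 were below a value of 1, so SPARC reached the minimum level for testing through its knockdown libraries. With no filter on low values it did not pass either (limma adjusted p = 0.0887). The count and the median over the tested partners therefore carry no weight of their own. AGRN, which encodes agrin, a heparan sulfate proteoglycan that binds the laminin coiled coil, averaged 88.0 in the knockdown libraries and 60.4 in the control libraries (0.52, limma adjusted p = 0.0545). HSPG2, which encodes perlecan, averaged 125 in the knockdown libraries and 93.2 in the control libraries (0.42, limma adjusted p = 0.0826).

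The nidogens, which bridge the laminin and collagen sheets, were abundant. NID1 averaged 98.2 in the knockdown libraries and 76.7 in the control libraries (log2 fold change 0.33, limma adjusted p = 0.246), and NID2 118 in the knockdown libraries and 123 in the control libraries (-0.07, limma adjusted p = 0.774). The collagen chains of the common basement membrane network were scarce by comparison: COL4A1 averaged 1.81 in the knockdown libraries and 1.73 in the control libraries, and COL4A2 was at most 0.42 in any library. COL4A5 was the most abundant of the type IV collagen genes, with a mean of 32.9 in the knockdown libraries and 21.2 in the control libraries (0.59, limma adjusted p = 0.104). COL4A3 averaged 4.23 in the knockdown libraries and 1.26 in the control libraries and was fully apart without passing (1.11, limma adjusted p = 0.0580).

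The genes that build the laminin-binding glycan of alpha-dystroglycan showed no call. Of 17, 16 were tested and 0 passed (limma, either direction, against 8.08% of all genes tested). An unadjusted limma p below 0.05 was found for 3 of the 16, against 4019 of all 13696 genes tested. The median log2 fold change was -0.01. The 2 with the smallest p were GMPPB, which makes the sugar donor GDP-mannose, and DPM3, a subunit of the dolichol-phosphate mannose synthase. GMPPB averaged 5.23 in the knockdown libraries and 9.62 in the control libraries (log2 fold change -0.78, SE 0.23, limma adjusted p = 0.0733). DPM3 averaged 53.7 in the knockdown libraries and 37.6 in the control libraries (0.49, SE 0.16, limma adjusted p = 0.0826). Both were fully apart between the groups, as were 33.1% of all genes tested in either direction.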

How the data were processed

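Per the labels' protocols, RNA of Huh7 cells was isolated with Trizol, and sequencing libraries were prepared using an Illumina TruSeq kit. Group and replicate number came from each title. The authors deposited 1 table of 23344 human Ensembl gene IDs with a column per library; its values were treated as FPKM made by the authors, since they are not whole numbers; the file names no unit, and they could also be TPM with some genes missing. The submitters' processing notes list RSEM 1.1.17, Bowtie2 2.2.6, Trimmomatic 0.36, bcl2fastq 2.19.0, DESeq2 1.16.1 and edgeR 3.18.1, with no role, and the mouse build mm10, although the IDs are human; coordinates given here are those of the RefSeq start-site windows alone. The annotation and the counting strand are not given in the sources used here. Depth is unknown, so no counting intervals were computed.

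The filter kept the 13696 genes that reached 1 in 3 or more libraries, and log2(value + 1) was tested with limma 3.58.1 in R 4.3.3 (mean-variance trend, robust moderation, two-sided, Benjamini-Hochberg over all genes kept). Fits that leave out or rescale libraries used the same genes. The fit was tested on simulated data. Ratios within a library were tested with exact permutation in scipy 1.17.1. Named genes are all subunits, VCAN, every receptor, partner or glycosylation gene that passed (the 2 with the smallest p where none did) and the 3 genes most like each called subunit. ITGB1, ITGA6, ITGB4, BCAM, ITGA3, SDC4, AGRN, HSPG2, NID1, NID2, COL4A1, COL4A2, COL4A3, COL4A5, APOA1, FGB, TTR, LYZ, CD14, CD68, EGFL7, ADRM1 and DLD were named after their values were seen. So were the markers S100A8, VWF, KDR, CLDN5 and LUM. The subunits, lists, motifs and tests were chosen with earlier results of these data known. Of the marker lists, 7 of 8 fibroblast and stellate genes had a row and summed to between 149.2 and 174.5 in the knockdown libraries and between 164.9 and 184.6 in the control libraries, nearly all of it LUM; the 4 of 8 endothelial genes summed to between 34.6 and 45.5 in the knockdown libraries and between 26.8 and 36.1 in the control libraries, nearly all of it EGFL7. Their part in the results was not tested.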

Additional observations from a re-analysis of the deposited data

How the results depend on the processing

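The alternatives were a pseudocount of 0.1, other filters, other scalings, other moderation, a replicate block and leaving out each library. The count of called genes was 1107 of 13696, 217 with no filter on low values and 727 without trend and robust moderation, and 54 to 3342 when 1 library was left out (3342 without knockdown replicate 1, at most 222 otherwise). The count of called laminin subunits was 0 with no filter, 1 without trend and robust moderation, and 0 to 3 with a library left out. For the receptors it was 1 in each of the settings with no filter, without trend and robust moderation and with the replicate block, and 0 to 9 with a library left out; for the partners 0 with no filter, 2 with quantile normalization, 2 after rescaling to the sum of the other genes than the mitochondrially encoded ones, and 0 to 8; for the glycosylation genes 0 to 1. VCAN was between -1.56 and -1.23 with a library left out. Of the subunits that did not pass, LAMA4 was -0.0345 and LAMC1 0.00544 with quantile normalization, and LAMC1 was 0.0544 with the rescaling; with a library left out LAMA3 was between -0.27 and 0.39, LAMA4 between -0.0780 and 0.21, LAMB1 between -0.0337 and 0.26 and LAMC1 between -0.15 and 0.0327. The causes were not tested. The log2 difference in ratio was between 0.64 and 0.94 for LAMB2 to LAMB1, between 1.75 and 2.26 for LAMB3 to LAMB1 and between 0.19 and 0.51 for LAMA5 to LAMC1 with a library left out, and 1.02 for LAMB3 to LAMB1 with a pseudocount of 1. Deviations of same-numbered libraries had correlations of 0.0530, 0.105 and 0.135 for replicates 1, 2 and 3, against -0.210 to 0.0935 for differently numbered ones. The same-numbered value was the highest for knockdown replicates 2 and 3, but knockdown replicate 1 was nearer to control replicate 2 (0.0935). These values do not settle a pairing, and the numbers were not taken as pairs. With the replicate block 861 genes were called, LAMB2 had an adjusted p of 0.0474 and LAMB3 one of 0.0456 (limma), and the receptor call left was SDC1.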
